A study of Mus musculus with 16 samples.

Results

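The genes described here are 38 genes of the cell division cycle, chosen by symbol: G1 and G1/S cyclins with their kinases, inhibitors of those kinases, DNA replication genes, S/G2/M cyclins with Cdk1, spindle and checkpoint genes, kinetochore and mitotic chromosome genes, and Anln. All 38 have a row in the count table, out of 54108 genes with a symbol, and all 38 passed the filter on low counts that left 16051 genes for testing. The values are read counts per gene from polyadenylated RNA of mouse heart ventricles at 8 weeks of age. The 4 conditional knockout (cKO) libraries come from mice with floxed Rbpms alleles and a Cre recombinase under the Myh6 promoter, and the 4 control libraries from mice with floxed Rbpms alleles and no Cre. RBPMS is an RNA-binding protein, and the Myh6 promoter is active in cardiomyocytes, so the other cells of a cKO ventricle keep intact alleles. Effects of Rbpms loss and of Cre itself cannot be told apart with these controls. Each group holds 3 males and 1 female, the female being replicate 3 in both. The labels do not say whether tissue of several mice was pooled, so a p-value measures the spread between these libraries, which may be partly technical. Newborn hearts of the same series were not analysed here.

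A cell enters division when D-type cyclins with CDK4 or CDK6, and then E-type cyclins with CDK2, inactivate the retinoblastoma protein and free E2F factors, which turn on the genes for DNA synthesis. Cyclin A and B with CDK1 then drive entry into mitosis, where kinetochore proteins attach chromosomes to the spindle, checkpoint kinases watch the attachment, and anillin organises the contractile ring that splits the cell. Most mouse cardiomyocytes leave this cycle in the first days or weeks after birth, while fibroblasts, endothelial cells and immune cells of the adult heart can still divide. In a whole ventricle, fewer cells of a type and less RNA per cell cannot be told apart.

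Total counts per library were 20190334 to 24540433. Levels are given as CPM, a library's counts scaled to a common total with TMM factors, and 1 CPM stands for 19.1 to 25.3 reads. Rbpms, the targeted gene, had 26.9 to 38.8 CPM in the cKO libraries, against 102 to 193 CPM in the control libraries, with a log2 fold change of -2.33 ± 0.20 (SE) and an adjusted p of 3.5e-05 by edgeR's quasi-likelihood test. Mitochondrially encoded genes took 8.04% to 9.30% of counts in cKO and 8.95% to 11.8% in control. The share was highest in control replicate 4. Of the 16051 tested genes 1548 were higher and 1547 lower in cKO at an adjusted p under 0.05. Scaled by total counts alone, 1992 were higher and 1021 lower, and the same 5 cell cycle genes described below were called.

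Across the 38 cell cycle genes the difference between genotypes was small for most. Cyclin D2 (Ccnd2), cyclin E2 (Ccne2), the centromeric histone gene Cenpa and anillin (Anln) were higher in cKO, and the kinetochore gene Cenpf was lower, by 3.14-fold. These 5 genes are 13.2% of the 38, beside 19.3% of all tested genes called in either direction, 9.64% higher and 9.64% lower. The median log2 fold change (cKO over control) of the 38 was 0.19, beside 0.01 over all tested genes, with 29 positive and 9 negative values. Positive values made up 76.3% of the 38 and 50.6% of all tested genes. With 1 library left out the median of the 38 ran from 0.09 to 0.35 and the number of negative values from 5 to 13. It was 0.09 without cKO replicate 4 and 0.12 without control replicate 3, and it was 0.33, 0.34 and 0.35 without cKO replicate 2, control replicate 1 and control replicate 2. The groups did not overlap for 5 of the 38, namely Ccnd2, Ccne2, Cenpa and Mcm7 with every cKO library above every control library and Cenpf with every one below. Over all tested genes this held for 23.5%, with 11.8% above and 11.8% below. The widest interval was that of Ccnb1, with 2 to 50 reads per library, but Top2a, with 24 to 351 reads, also had one of the widest.

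**Figure D1:**
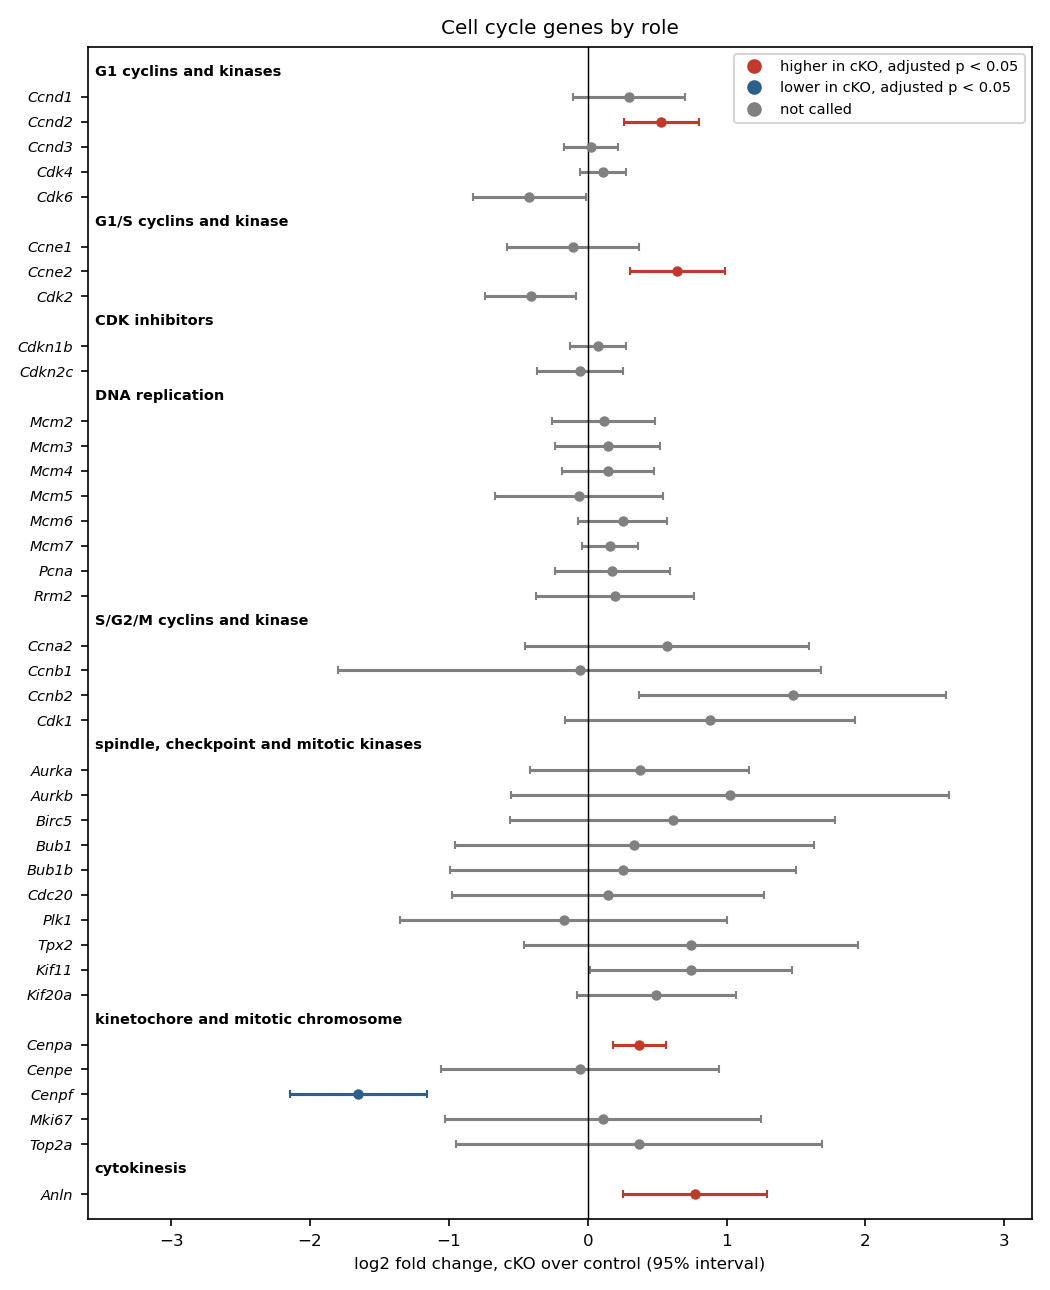
Log2 fold change (cKO over control) of each of the 38 cell cycle genes on the horizontal axis, with its 95% confidence interval, grouped by role down the page. Cenpf lies farthest to the left at -1.65, and 29 of the 38 points lie right of 0 but most of their intervals cross it.

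The G1 genes were led by Ccnd2, the D-type cyclin with the most RNA here. Ccnd2 had 502, 440.0, 614 and 567 CPM in the cKO libraries, against 299, 358, 407 and 407 CPM in the control libraries. The lowest cKO library lay above the highest control library. Its log2 fold change was 0.53 ± 0.12 (SE), which is 1.44-fold (95% interval 1.2 to 1.74), with an adjusted p of 0.0109 by edgeR's quasi-likelihood test. Per kilobase of exon, Ccnd2 was the highest of the 38 genes in both groups, at 56.4 ± 8.05 CPM per kb in cKO and 39.1 ± 5.44 CPM per kb in control (SD, n = 4 each). Among the 3 D-type cyclins taken per kilobase, Ccnd2 made up 71.0%, 72.0%, 71.4% and 72.2% in the cKO libraries, against 59.8%, 64.4%, 76.4% and 68.1% in the control libraries. The shares of the control libraries spread around those of cKO, and control replicate 3 was the highest of all 8.

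Ccnd1 had 79.6, 64.4, 102 and 83.6 CPM in the cKO libraries, against 76.1, 77.7, 42.2 and 73.0 CPM in the control libraries. The groups overlapped, and control replicate 3 stood well below the other controls. The difference was 0.30 on the log2 scale with a 95% interval of -0.11 to 0.70, which did not pass the test (edgeR adjusted p = 0.309). Up to 23.4% of the exon length of Ccnd1 lies over a gene on the opposite strand, and the strand setting of the counting is not given in the sources used here. Ccnd3 and Cdk4, the usual kinase partner of the D-type cyclins, had log2 fold changes of 0.02 (95% interval -0.17 to 0.22) and 0.11 (-0.06 to 0.27). Neither interval reaches a change of 1.5-fold. Exons of Tspan31 on the opposite strand cover 19.7% of the exon length of Cdk4, so its counts carry the same doubt as those of Ccnd1.

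The remaining G1 and G1/S kinases, Cdk6 and Cdk2, had negative fold changes that did not pass the test. Cdk6 had 35.8, 34.5, 22.5 and 38.7 CPM in the cKO libraries, against 48.9, 56.6, 34.5 and 35.8 CPM in the control libraries. Cdk2, the kinase of the E-type cyclins, had 16.4, 16.0, 11.9 and 18.1 CPM in the cKO libraries, against 24.9, 22.3, 19.3 and 16.5 CPM in the control libraries. In both genes the female library, replicate 3, was the lowest of the cKO group, and the groups overlapped. Their log2 fold changes were -0.42 ± 0.19 for Cdk6 (SE, edgeR adjusted p = 0.146) and -0.41 ± 0.15 for Cdk2 (edgeR adjusted p = 0.0812). With sex as a covariate both passed the same edgeR test, at an adjusted p of 0.0266 for Cdk6 and 0.0375 for Cdk2.

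The E-type cyclins differed from each other. Ccne2 had 9.89, 7.60, 11.2 and 11.6 CPM in the cKO libraries, against 5.98, 5.73, 7.03 and 7.0 CPM in the control libraries. No cKO library fell within the control range. For Ccne2 the log2 fold change was 0.65 ± 0.16 (SE), or 1.57-fold, with an adjusted p of 0.0128 by edgeR. Exons of Ints8 on the opposite strand cover 17.4% of the exon length of Ccne2. Ints8 had mean counts of 580 in cKO and 462 in control, against 117 to 284 reads per library for Ccne2. Without a known strand setting the reads of these genes cannot be told apart, and the Ccne2 call carries that limit. Ccne1 was low, and its log2 fold change of -0.10 (95% interval -0.58 to 0.37) did not pass.

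**Figure D2:**
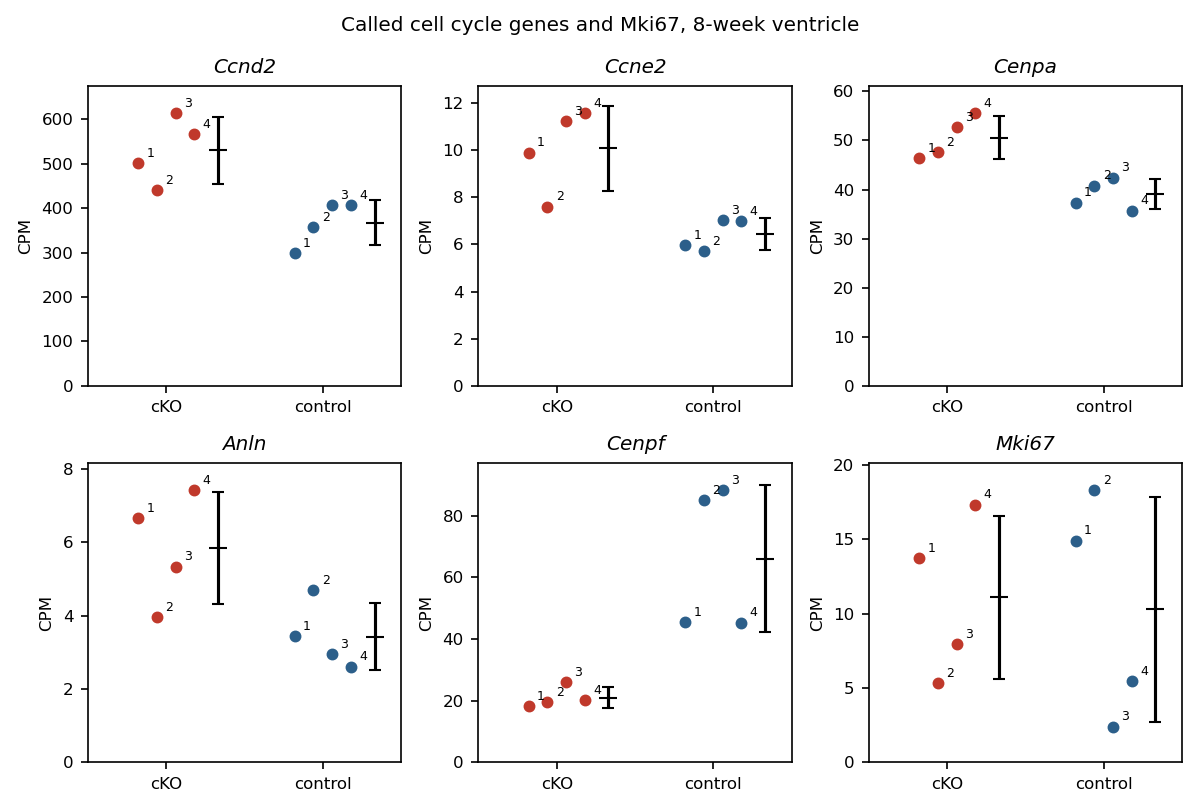
Level in CPM of the 5 cell cycle genes that passed the test, and of Mki67, 1 panel per gene, with cKO libraries left and control libraries right, replicate numbers beside the points and the group mean with its SD as a bar (n = 4 each). Groups are apart for Ccnd2, Ccne2, Cenpa and Cenpf, and overlap for Anln and Mki67.

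Of the inhibitors of cyclin-dependent kinases among the 38, neither was called. Cdkn1b, which encodes p27, had 85.9, 83.1, 83.2 and 79.9 CPM in the cKO libraries, against 74.9, 74.8, 94.3 and 71.8 CPM in the control libraries. The cKO values lay inside the control range, whose top was set by control replicate 3 alone. On the log2 scale the difference was 0.07 with a 95% interval of -0.13 to 0.27 (edgeR adjusted p = 0.645). Cdkn2c, which encodes p18 and binds CDK4 and CDK6, had a log2 fold change of -0.06 (95% interval -0.37 to 0.26).

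No DNA replication gene passed the test. Of the 8 genes, 7 had positive log2 fold changes, with a range over all 8 of -0.06 to 0.25 and a median of 0.15. Pcna, the sliding clamp of DNA polymerases and the gene of this group with the highest mean level, had 25.5, 25.1, 22.7 and 23.9 CPM in the cKO libraries, against 25.1, 29.0, 18.8 and 13.2 CPM in the control libraries. The 4 cKO libraries lay close together inside a control range that spanned 2.20-fold. For Pcna the log2 fold change was 0.18 with a 95% interval of -0.24 to 0.59 (edgeR adjusted p = 0.579). Of the 6 subunits of the MCM helicase, which unwinds DNA at replication forks, Mcm7 was the only one whose groups were apart. Mcm7 had 14.8, 14.9, 14.9 and 16.5 CPM in the cKO libraries, against 14.5, 12.8, 13.5 and 13.9 CPM in the control libraries. The gap was narrow, the log2 fold change was 0.16 ± 0.09 (SE), and it did not pass (edgeR adjusted p = 0.272). Exons of Ap4m1 and Cops6 on the opposite strand cover 7.25% and 1.45% of the exon length of Mcm7. Its counts thus carry the same doubt over strand as those of Ccnd1. Mcm2, Mcm3, Mcm4, Mcm5 and Mcm6 had log2 fold changes of 0.11, 0.14, 0.15, -0.06 and 0.25. Rrm2, a subunit of the reductase that makes deoxynucleotides, had 0.20 (95% interval -0.37 to 0.76).

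The S/G2/M cyclins and Cdk1 were all low, with mean levels over the 8 libraries of 0.753 to 2.37 CPM, and none was called. Ccna2, the cyclin of S phase and G2 and the highest of the 4, had 2.94, 2.24, 1.62 and 4.56 CPM in the cKO libraries, against 2.90, 3.14, 0.758 and 0.836 CPM in the control libraries. Both groups were spread over more than the distance between them. On the log2 scale cKO differed by 0.57, with a 95% interval of -0.45 to 1.6 (edgeR adjusted p = 0.451). Exons of Exosc9 on the opposite strand cover 12.5% of the exon length of Ccna2. Exosc9 had mean counts of 437 in cKO and 401 in control, against 16 to 106 reads per library for Ccna2. The Ccna2 level thus carries the same doubt over strand as that of Ccnd1. Ccnb2, a mitotic B-type cyclin, had 1.12, 0.615, 0.871 and 1.85 CPM in the cKO libraries, against 0.725, 0.490, 0.253 and 0.105 CPM in the control libraries. The lowest cKO library lay below the highest control library. Its log2 fold change of 1.48 (95% interval 0.37 to 2.58) missed the threshold in edgeR, at an adjusted p of 0.0625, and passed it in DESeq2, at 0.0372. It also passed in edgeR without control replicate 1, at an adjusted p of 0.0355. Cdk1 and Ccnb1 had log2 fold changes of 0.88 (95% interval -0.16 to 1.92) and -0.06 (-1.80 to 1.68).

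Of the 10 spindle, checkpoint and mitotic kinase genes none was called, and 9 had positive log2 fold changes, with a median of 0.43 and a range of -0.17 to 1.02. Kif11, a motor that pushes spindle poles apart and the highest of the 10, had 4.39, 2.68, 4.27 and 5.33 CPM in the cKO libraries, against 3.04, 3.87, 1.89 and 1.15 CPM in the control libraries. The groups overlapped through cKO replicate 2 and controls 1 and 2. For Kif11 the log2 fold change was 0.74 with a 95% interval of 0.01 to 1.47 (edgeR adjusted p = 0.150). The Aurora kinases Aurka and Aurkb had log2 fold changes of 0.37 and 1.02, and Birc5, the survivin subunit of the Aurkb complex, had 0.61. The spindle checkpoint genes Bub1, Bub1b and Cdc20 had 0.34, 0.25 and 0.14, and Plk1, a kinase of mitotic entry, had the one negative value at -0.17. Tpx2, a spindle assembly factor, and Kif20a, a motor of the central spindle, had 0.75 and 0.50. Exons of Cdc23 on the opposite strand, a gene with far more reads, cover 29.3% of the exon length of Kif20a, and without a known strand setting their reads cannot be told apart. Every 95% interval of these 9 included 0.

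Kinetochore and mitotic chromosome genes held the gene that differed most of the 38. Cenpf encodes a large protein that accumulates through G2, sits on the outer kinetochore in mitosis and binds microtubules. In mice its loss from heart muscle has been linked to dilated cardiomyopathy. Cenpf had 18.3, 19.5, 26.0 and 20.3 CPM in the cKO libraries, against 45.5, 85.0, 88.5 and 45.4 CPM in the control libraries. All 4 cKO libraries lay well below the lowest control library, and the control libraries formed a lower pair, replicates 1 and 4, and a higher pair, replicates 2 and 3. The log2 fold change was -1.65 ± 0.23 (SE), or 3.14-fold lower in cKO, with an adjusted p of 0.00051 by edgeR's quasi-likelihood test. Reads behind these values numbered 442 to 657 in the cKO libraries and 868 to 2101 in the control libraries. Per kilobase of exon, Cenpf had 1.36 ± 0.22 CPM per kb in cKO and 4.28 ± 1.55 CPM per kb in control (SD, n = 4 each). It ranked 18 of the 38 genes in cKO and 9 in control by that measure. No exon of another gene on the opposite strand overlaps it.

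Cenpa, the histone H3 variant that marks centromeres, differed in the other direction. It had 46.5, 47.6, 52.8 and 55.5 CPM in the cKO libraries, against 37.3, 40.8, 42.4 and 35.7 CPM in the control libraries. The groups were apart and each was narrow. The log2 fold change was 0.37 ± 0.09 (SE), or 1.29-fold, with an adjusted p of 0.0115 by edgeR. Cenpe, a kinetochore motor, had a log2 fold change of -0.05 (95% interval -1.06 to 0.95).

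Mki67 and Top2a, which encode the Ki-67 coat protein of mitotic chromosomes and topoisomerase II alpha and are both common marks of dividing cells, were not called. Mki67 had 13.7, 5.32, 7.95 and 17.3 CPM in the cKO libraries, against 14.9, 18.3, 2.40 and 5.49 CPM in the control libraries. Top2a had 9.36, 3.82, 4.71 and 15.1 CPM in the cKO libraries, against 8.70, 12.5, 1.01 and 3.34 CPM in the control libraries. In both genes each genotype held high and low libraries, and the ranges overlapped. The cKO range of Mki67 lay inside the control range. For Top2a, control replicates 3 and 4 lay below every cKO library and cKO replicate 4 above every control library. Their log2 fold changes were 0.11 for Mki67 (95% interval -1.03 to 1.25, edgeR adjusted p = 0.913) and 0.37 for Top2a (-0.94 to 1.69, edgeR adjusted p = 0.730). These intervals leave room for a change of 2-fold in either direction for Mki67.

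Anln, the scaffold of the contractile ring and the 1 cytokinesis gene of the 38, was higher in cKO. It had 6.67, 3.96, 5.34 and 7.44 CPM in the cKO libraries, against 3.44, 4.70, 2.95 and 2.61 CPM in the control libraries. The groups overlapped, since cKO replicate 2 lay below control replicate 2. The log2 fold change was 0.77 ± 0.24 (SE), or 1.71-fold, with an adjusted p of 0.0403 by edgeR. The call was lost without any 1 of 6 libraries (cKO replicate 1, 3 or 4 or control replicate 1, 3 or 4), at an edgeR adjusted p of 0.0600 to 0.113, and among males alone, at 0.0931. It held without cKO replicate 2, at an edgeR adjusted p of 0.0193, and without control replicate 2, at 0.0208. Ccnd2, Ccne2, Cenpa and Cenpf stayed called in edgeR without each library in turn and among males alone.

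**Figure D3:**
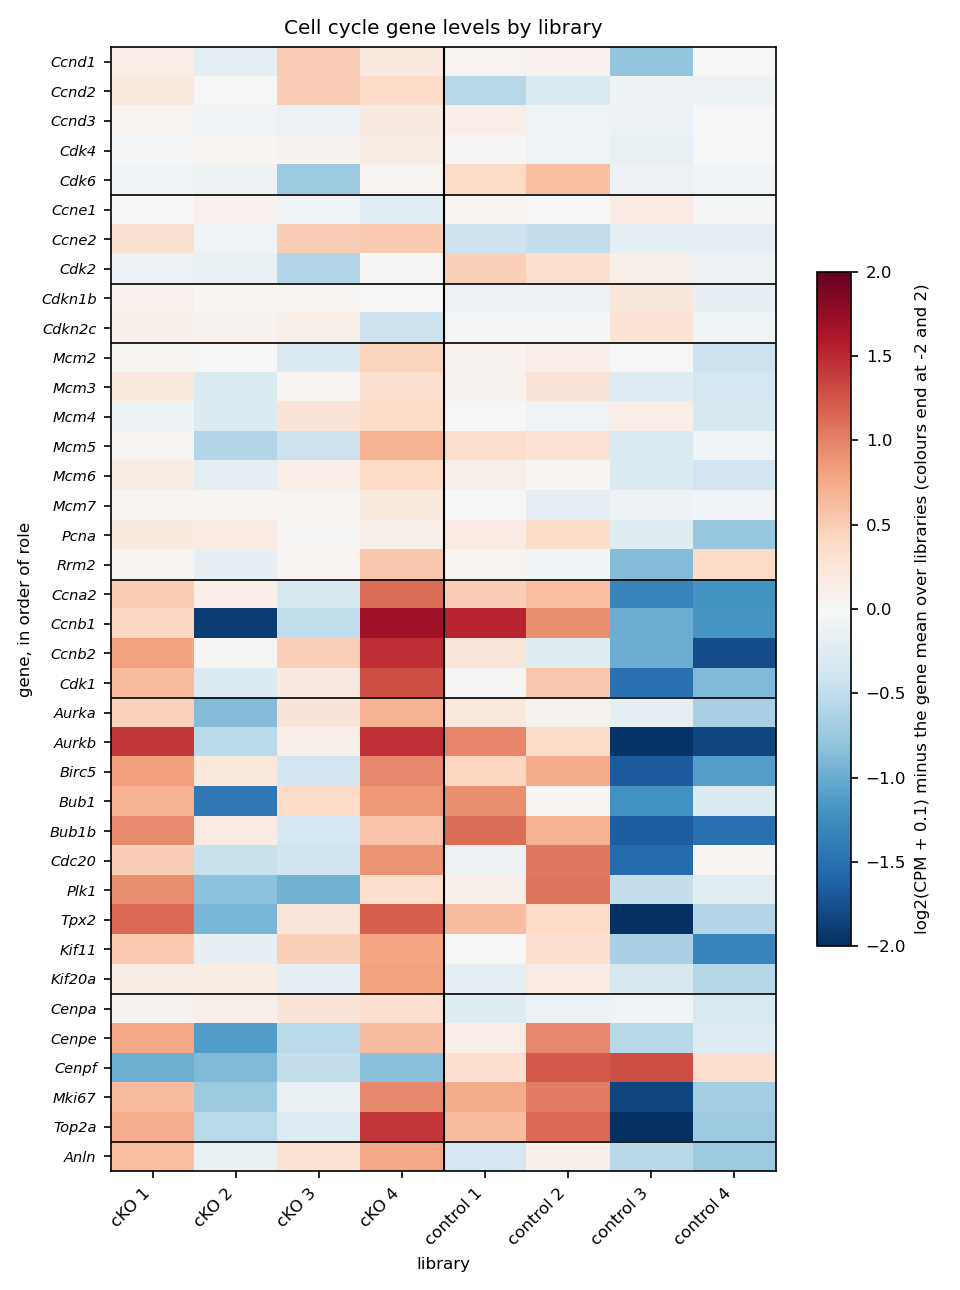
Level of the 38 cell cycle genes in each of the 8 libraries (cKO replicates 1 to 4 left, control replicates 1 to 4 right), as log2(CPM + 0.1) minus the gene's mean over the 8 libraries, with genes in order of role down the page. The mitotic genes are high together in cKO 1 and 4 and in control 1 and 2, while Cenpf divides by genotype.

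Within each genotype the mitotic genes were high in the same libraries. This pattern was noticed after the values were seen and is given as a description, with no test. Of the 20 genes in the S/G2/M, spindle, kinetochore and cytokinesis groups, 17 were higher in cKO replicates 1 and 4 than in cKO replicates 2 and 3. Likewise 17 were higher in control replicates 1 and 2 than in control replicates 3 and 4, and 16 did both. Of the other 18 genes, 7 had this order in cKO, 8 had it in control and 6 did both. The highest cKO library was replicate 4 for 16 of the 20 and for 12 of the other 18. The share of all tested genes with this order was not computed. The summed level of the 10 spindle and checkpoint genes was 25.3, 12.3, 15.4 and 28.2 CPM in the cKO libraries, against 19.9, 21.3, 7.24 and 8.36 CPM in the control libraries. The summed level of the S/G2/M cyclins and Cdk1 was 6.87, 3.96, 4.31 and 11.7 CPM in the cKO libraries, against 6.80, 6.71, 1.64 and 1.78 CPM in the control libraries. Within each genotype the highest library thus exceeded the lowest by more than the genotypes' means differed.

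The spread went past counting error. The coefficient of variation between libraries had a median of 48.4% in cKO and 67.1% in control over these 20 genes, beside 16.8% in cKO and 14.9% in control over the other 18, and 11.3% in cKO and 14.0% in control over all tested genes. The 20 genes had fewer reads, and counting alone would give them a median of 14.0% in cKO and 15.8% in control, beside 5.04% in cKO and 5.51% in control for the other 18. With counting variance subtracted, the medians were 44.8% in cKO and 62.3% in control for the 20, and 16.0% in cKO and 14.1% in control for the other 18. Among the 20 genes, counting was most of the spread for Aurka in control, with 20.4% of counting error in 26.4%. Among the other 18, Ccne1 in control varied by 6.74%, less than the 17.0% that counting alone would give. Top2a spanned 12.4-fold and Mki67 7.63-fold among the control libraries. The summed DNA replication genes varied less, at 103, 91.4, 99.9 and 122 CPM in the cKO libraries, against 103, 105, 87.0 and 76.7 CPM in the control libraries, with the same libraries on the high side in both genotypes. Cenpf and Cenpa did not follow this order. Control replicate 3, the female, had the highest Cenpf and Cenpa of the control libraries and the lowest Mki67. The labels give no batch beyond sex, and both genotypes have the female library among the low ones.

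**Figure D4:**
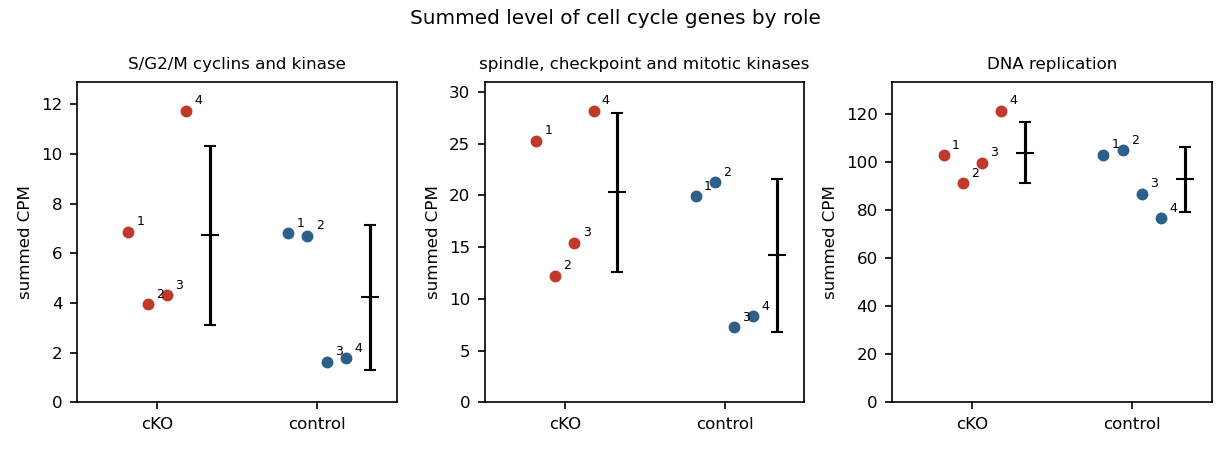
Summed CPM of the S/G2/M, spindle and DNA replication genes of the 38 in each library, cKO libraries left and control libraries right, with the group mean and SD as a bar (n = 4 each). In the S/G2/M and spindle groups the libraries of 1 genotype split into higher and lower pairs, and the ranges of the genotypes overlap.

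The promoters were searched for sequence motifs that the field ties to cell cycle timing. CCAAT boxes, bound by NF-Y, and the cell cycle homology region (CHR), bound by the MuvB complex, are typical of genes that peak in G2 and mitosis, and E2F sites of genes that peak at the G1/S boundary. Windows of 300 bases (250 before to 50 after the transcription start) were read from RefSeq on GRCm38.p6, which held 33 promoters for 30 of the 38 genes. Ccnd1, Ccna2, Aurkb, Mcm4, Tpx2, Kif20a, Ccne2 and Ccnd2 had no entry. The motifs searched on both strands were CCAAT, CHR as TTTGAA or TTCGAA, and E2F as TTCCCGC or TTGGCGC. In the windows printed here no match overlapped another. CCAAT was found in 78.8% of the 33 promoters and in 37.4% of all 32851 promoters of the table. CHR was found in 45.5% of the 33 and in 19.2% of all, and E2F in 30.3% of the 33 and in 6.81% of all. Of the 30 genes with an entry, 4 (Birc5, Ccne1, Cdk4 and Cdk6) had none of these motifs in their windows. Among the 16 mitotic genes with a promoter, CCAAT was found in 87.5%, CHR in 81.3% and E2F in 18.8%. Among 8 promoters of 7 DNA replication genes, CCAAT was found in 100%, CHR in 25% and E2F in 62.5%. CCAAT thus did not set these groups apart. A match is only a match of letters.

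The promoters below are those of the 3 called genes with an entry (Cenpf, Cenpa and Anln) and, for comparison, of Mki67 and Ccnb2, whose levels followed the library order described above. Anln followed that order too, and Cenpf and Cenpa did not. Each is written 5′ to 3′ on the gene's own strand in GRCm38.p6 coordinates. Capitals mark the CCAAT, CHR and E2F matches, which read as the reverse complement where they lie on the other strand.
Cenpf (chr1:189688037-189688336, minus strand): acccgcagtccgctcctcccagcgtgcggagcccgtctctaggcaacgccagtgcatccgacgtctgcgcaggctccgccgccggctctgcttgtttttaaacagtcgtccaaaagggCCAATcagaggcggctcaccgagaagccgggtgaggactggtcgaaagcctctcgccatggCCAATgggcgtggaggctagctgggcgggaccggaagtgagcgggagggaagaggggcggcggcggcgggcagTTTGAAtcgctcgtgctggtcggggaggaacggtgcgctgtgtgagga
Cenpa (chr5:30666636-30666935, plus strand): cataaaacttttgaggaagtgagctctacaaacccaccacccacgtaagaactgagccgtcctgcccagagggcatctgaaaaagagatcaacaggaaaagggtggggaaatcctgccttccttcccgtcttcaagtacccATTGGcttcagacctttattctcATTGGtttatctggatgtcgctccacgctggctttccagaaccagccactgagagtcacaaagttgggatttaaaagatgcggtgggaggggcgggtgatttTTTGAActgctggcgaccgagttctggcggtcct
Anln (chr9:22389157-22389456, minus strand): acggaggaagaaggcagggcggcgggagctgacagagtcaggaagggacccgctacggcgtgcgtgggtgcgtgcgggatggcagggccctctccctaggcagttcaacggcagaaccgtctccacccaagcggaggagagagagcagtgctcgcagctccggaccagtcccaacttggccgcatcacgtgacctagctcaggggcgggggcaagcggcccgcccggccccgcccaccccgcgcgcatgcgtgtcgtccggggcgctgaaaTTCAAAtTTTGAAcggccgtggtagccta
Mki67 (chr7:135716330-135716629, minus strand): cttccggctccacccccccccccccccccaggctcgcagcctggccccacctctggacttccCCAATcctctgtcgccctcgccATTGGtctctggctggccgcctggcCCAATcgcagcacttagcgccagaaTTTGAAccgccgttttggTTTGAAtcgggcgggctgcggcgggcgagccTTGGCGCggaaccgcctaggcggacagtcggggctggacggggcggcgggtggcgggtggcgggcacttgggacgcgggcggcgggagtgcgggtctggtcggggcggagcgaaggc
Ccnb2 (chr9:70421505-70421804, minus strand): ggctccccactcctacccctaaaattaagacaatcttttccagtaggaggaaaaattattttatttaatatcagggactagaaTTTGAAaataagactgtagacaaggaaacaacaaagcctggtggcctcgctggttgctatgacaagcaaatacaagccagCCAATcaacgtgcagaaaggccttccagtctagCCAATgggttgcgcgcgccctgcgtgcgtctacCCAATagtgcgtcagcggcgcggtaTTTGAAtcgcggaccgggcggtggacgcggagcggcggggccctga
The Cenpf window held 2 CCAAT and 1 CHR, and the Cenpa window the same numbers. Mki67 held 3 CCAAT, 2 CHR and 1 E2F, and Ccnb2 held 3 CCAAT and 2 CHR. Anln held 2 CHR and no CCAAT.

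A wider list of 96 other cell cycle genes, of which 89 were tested, was called at a rate of 12.4%, with 9 higher and 2 lower in cKO, beside the 19.3% of all tested genes. The median log2 fold change of the 89 was 0.16. Of the 19 E2F, pocket protein and MuvB regulators, 3 were higher and 1 was lower. E2f1, an activating E2F factor, had 2.48, 1.36, 2.10 and 3.01 CPM in the cKO libraries, against 1.22, 1.32, 0.379 and 0.732 CPM in the control libraries. The groups were apart by a narrow margin, and the log2 fold change was 1.29 (edgeR adjusted p = 0.0335). Tfdp1, a dimer partner of E2F factors, and Rb1, the retinoblastoma protein, were higher by 0.40 (edgeR adjusted p = 0.0040) and 0.28 (0.0339) on the log2 scale. Rbl2, the p130 pocket protein of resting cells, was lower, with a log2 fold change of -0.30 (edgeR adjusted p = 0.0143).

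Of 3 other CDK inhibitors tested, Cdkn1a was higher. Cdkn1a, which encodes p21, had 47.8, 39.8, 50.5 and 42.1 CPM in the cKO libraries, against 14.1, 24.7, 14.7 and 37.4 CPM in the control libraries. The cKO libraries lay close together and just above control replicate 4. Its log2 fold change was 0.99 with an adjusted p of 0.0184 by edgeR. It lost its call in edgeR without cKO replicate 1, at an adjusted p of 0.0504, among males alone, at 0.0665, and with robust dispersions on all 8 libraries, at 0.0736.

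Of 29 other replication genes, Orc6, a subunit of the origin recognition complex, was higher and Gmnn was lower. Gmnn encodes geminin, which blocks a second round of origin licensing. It had 15.4, 15.4, 18.9 and 22.5 CPM in the cKO libraries, against 23.6, 25.3, 39.6 and 24.4 CPM in the control libraries. The groups were apart, with control replicate 3 far above the rest, and the log2 fold change was -0.65 (edgeR adjusted p = 0.0247). Of 38 other mitotic genes 4 were higher and none was lower, or 10.5%, beside 9.64% of all tested genes called higher. Of these 38 other mitotic genes, 28 had positive log2 fold changes, or 73.7%, beside 50.6% of all tested genes. The called genes were Cdc25b, a phosphatase that activates CDKs, at 0.64, the condensin subunit Smc4 at 0.58, Prc1, a crosslinker of the central spindle, at 0.79, and Nusap1, a spindle microtubule binder, at 0.86 (edgeR adjusted p of 0.00577, 0.00655, 0.0188 and 0.0392). Without 1 library or another, the calls of E2f1, Rb1, Orc6, Gmnn, Prc1 and Nusap1 were lost, while those of Tfdp1, Rbl2, Cdc25b and Smc4 held without each library in turn. Scaled by total counts, Rbl2 and Gmnn lost theirs, at edgeR adjusted p of 0.0711 and 0.0557, and with no filter on low counts Rb1 lost its call, at 0.0591. Among males alone E2f1, Rb1, Gmnn, Orc6 and Nusap1 were not called.

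**Figure D5:**
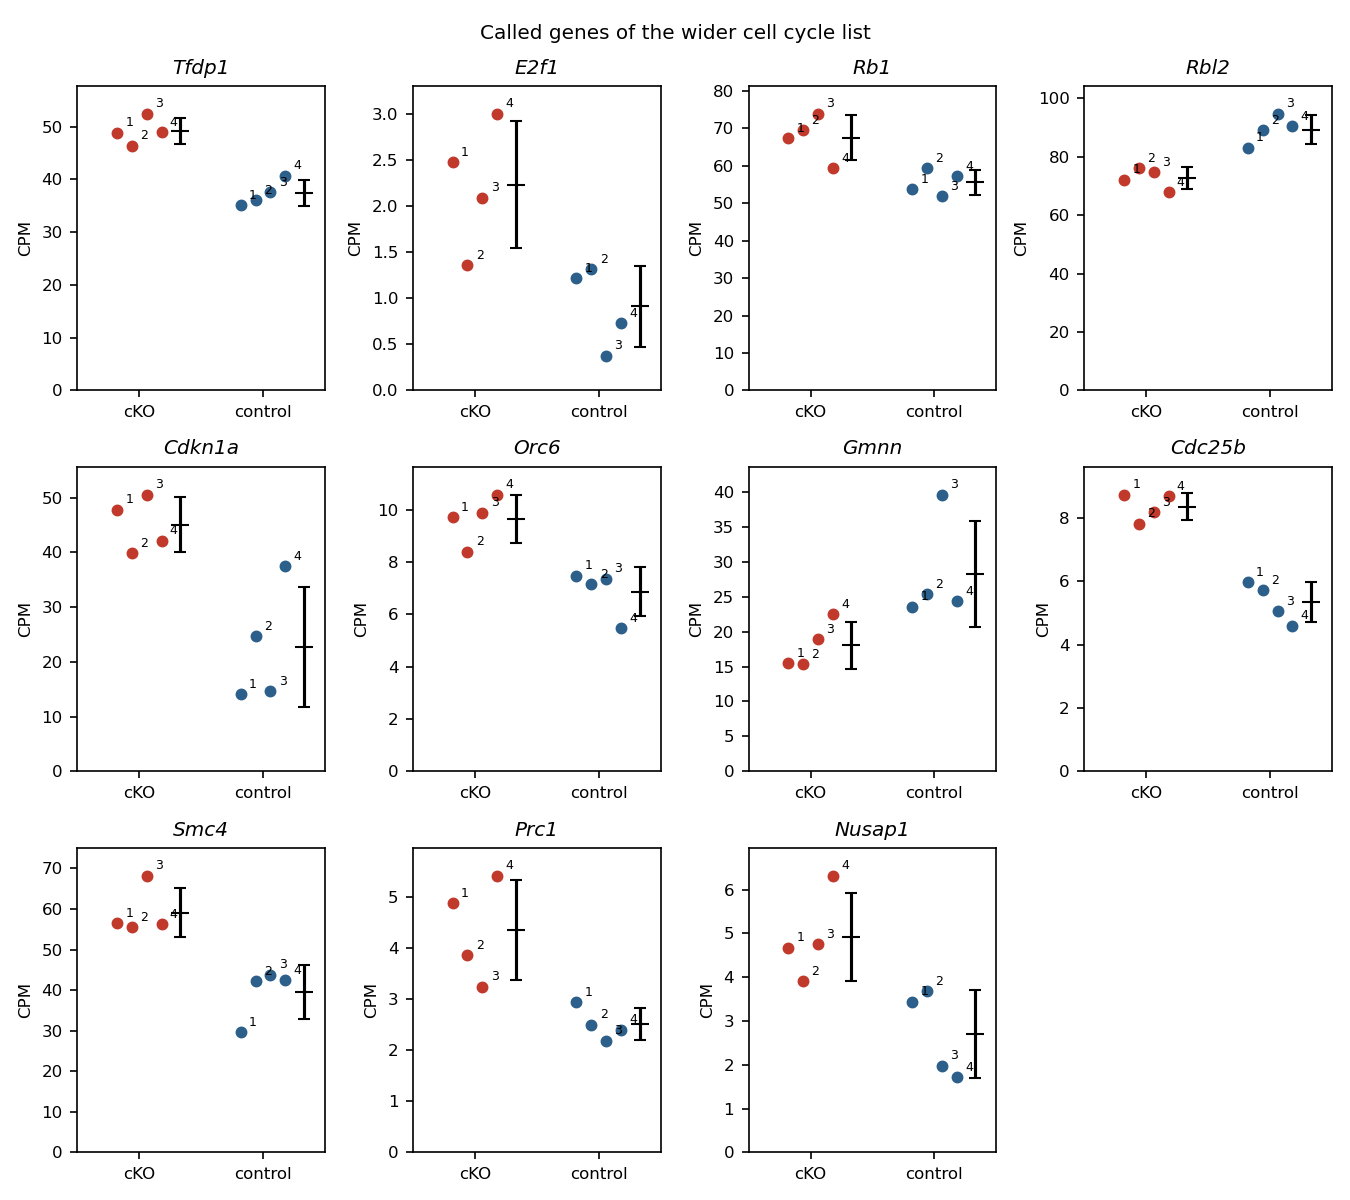
Level in CPM of the called genes of the wider cell cycle list, 1 panel per gene, with cKO libraries left and control libraries right and the group mean with its SD as a bar (n = 4 each). Rbl2 and Gmnn lie lower in cKO and the other 9 higher, and the groups are apart in every panel, which holds called genes only. Over the wider list the groups were apart for 11 of 89 tested genes, beside 23.5% of all tested genes.

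Marker genes of cell types are read against the 19.3% of all tested genes called in either direction. All 10 fibroblast markers were higher in cKO, with a median log2 fold change of 1.05 and a summed level of 5428 to 6329 CPM in the cKO libraries, against 2597 to 3511 CPM in the control libraries. Gsn and Col3a1, the highest of them, had log2 fold changes of 0.62 and 1.22. The Col3a1 call was lost in edgeR with robust dispersions (adjusted p = 0.0923) and without cKO replicate 1 (0.0552) or cKO replicate 4 (0.0543). Of 10 macrophage markers 3 were higher, and the sums were 371 to 424 CPM in the cKO libraries, against 231 to 364 CPM in the control libraries, with Lyz2 at 0.52 and Mrc1 at 0.42. In edgeR the Mrc1 call was lost without cKO replicate 1 (adjusted p = 0.0579) and the Lyz2 call among males alone (0.0547). The part of these cells in the differences of Ccnd2, Ccne2, Cenpa, Anln and Cenpf was not tested. Within the cKO group, replicates 1 and 4, high in mitotic genes, also had the highest fibroblast sums, at 5949 and 6329 CPM. The macrophage, endothelial and erythroid and blood sums were highest in these libraries too, so the order was not particular to fibroblasts. The cardiomyocyte, smooth muscle and pericyte, and lymphocyte sums did not follow it. Within the control group the fibroblast sum was highest in replicate 4, at 3511 CPM, which was low in mitotic genes.

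Endothelial and smooth muscle and pericyte markers were called at 20% each, near the share of all tested genes, and cardiomyocyte markers also at 20% but only lower. Of 10 cardiomyocyte markers 2 were lower in cKO and none higher, beside 9.64% of all tested genes called lower. Log2 fold changes were negative for 9 of the 10, while 50.6% of all tested genes had positive values. For 3 of the 10 every cKO library lay below every control library, beside 11.8% of all tested genes. Their sums, over all 10, were 40268 to 48713 CPM in the cKO libraries, against 47215 to 61867 CPM in the control libraries. Myh6 and Ttn, the highest of them, stood at -0.34 and -0.31 on the log2 scale, neither of them called. The 10 markers had mean levels of 1488 CPM or more, so the libraries hold the genes of their labelled tissue. Of 10 endothelial markers 1 was higher and 1 lower, with Cdh5 at -0.15 and Kdr at -0.19, and sums of 1353 to 1584 CPM in the cKO libraries, against 1494 to 1763 CPM in the control libraries. Of 10 smooth muscle and pericyte markers 1 was higher and 1 lower, with Des at 0.35 and Rgs5 at 0.01. Mean levels of Des, 2105 CPM in cKO and 1653 CPM in control, lay within the range of the cardiomyocyte markers. Its value therefore cannot be assigned to smooth muscle and pericytes. None of the 6 tested lymphocyte markers was called, with Cd3e at 1.12 and Cd4 at -0.05, and their sums were 5.54 to 9.54 CPM in the cKO libraries, against 4.29 to 8.02 CPM in the control libraries. None of the 6 tested erythroid and blood markers was called, with Hbb-bs at -0.07 and Hba-a1 at -0.18. These globin genes have near-identical copies, so their counts are uncertain. No listed marker was at 0 in all libraries, and 3 lymphocyte and 2 erythroid or blood markers were at 0 in at least 1 library.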

How the data were processed

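Polyadenylated RNA of 8-week-old ventricles was sequenced in 4 cKO and 4 control libraries. The authors deposited whole-number counts per gene symbol, 1 column per library. Tools listed in the submitters' processing notes are HISAT2 2.0.4, featureCounts 1.6.0, FastQC 0.11.4 and edgeR 3.30.3, and the builds listed are GRCm38 and mm10. Not given in the sources used here are the annotation, the strand setting and how multiply aligned reads were handled. Of 54132 rows, 24 with a number as symbol (0.115% to 0.132% of counts) were left out.

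Genes passing filterByExpr were tested with edgeR 4.0.16 (quasi-likelihood, TMM, genotype as the only term, two-sided, R 4.3.3, limma 3.58.1), and called at an adjusted p under 0.05 (Benjamini-Hochberg over 16051 genes). Standard errors and intervals come from that fit, and the script was tested on simulated data. DESeq2 1.42.0 and limma-voom were alternatives. Lengths for CPM per kb are merged exons of GENCODE vM21. No 2 libraries of a group were alike within sampling noise: the chi-square per degree of freedom was 7.79 to 34.8.

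The cell cycle genes, the wider list, the marker lists and the tests were chosen with earlier results of these data known. Full statistics went to called members and, in a class with none, to the highest by mean CPM; from each class of other cell cycle genes up to 4 called genes by adjusted p, and from each marker list the 2 with the highest mean CPM. Cdk2, Cdk6, Ccnd1, Mcm7, Ccnb2, Mki67 and Top2a were described further after their values were seen.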

Additional observations from a re-analysis of the deposited data

Results flagged for a closer look

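In a group of 4 libraries, a library was marked when its gap to the nearest other, as a share of the group's range, exceeded Dixon's 95% critical value. Of 128 groups tested over the cell cycle and marker genes named here, 9 had such a library, where chance gives about 1 in 20, or 6.4. Of the 9, 5 lay among 76 groups of the 38 cell cycle genes.

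Control replicate 3, the female, was marked 4 times. It was lowest for Ccnd1 at 42.2 CPM, with the other controls at 73.0 to 77.7 CPM. It was highest for Cdkn1b at 94.3 CPM, beside 71.8 to 74.9 CPM. It was also highest for Cdkn2c at 13.4 CPM, beside 10.5 to 11.0 CPM, and for Gmnn at 39.6 CPM, beside 23.6 to 25.3 CPM. The part of sex in these values was not tested, since the female is 1 library per genotype.

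In cKO replicate 4, Cdkn2c was lowest at 8.34 CPM, beside 11.7 to 12.1 CPM in the other cKO libraries, and Mcm7 was highest at 16.5 CPM, beside 14.8 to 14.9 CPM. In cKO replicate 3, Smc4 was highest at 68.2 CPM, beside 55.5 to 56.5 CPM. In control replicate 1, Smc4 was lowest at 29.6 CPM, beside 42.2 to 43.8 CPM. In control replicate 4, Orc6 was lowest at 5.49 CPM, beside 7.15 to 7.48 CPM.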

How the results depend on the processing

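No paired analysis was possible because no label ties a library of one genotype to one of the other. With total counts in place of TMM the all-gene median log2 fold change was 0.09, and 1021 genes were lower in cKO, with 0 of the wider cell cycle list and 2 of the markers. Of the 38 cell cycle genes 3 were lower with no filter, 2 by DESeq2 and 3 with sex as a covariate. Among males alone 4 of the wider list were higher and 1 lower, and 2 markers were lower. At an adjusted p under 0.01 the counts were 808 higher and 817 lower genes, 0 higher of the 38, 3 higher and 0 lower of the wider list, and 2 lower markers. With 1 library left out, 1 to 2 of the 38 were lower, 3 to 9 of the wider list higher and 1 to 3 lower, and 2 to 4 markers lower.

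Signs turned only for genes that were not called. With total counts the log2 fold changes were 0.025 for Cdkn2c, 0.021 for Mcm5, 0.022 for Cenpe, 0.016 for Cd4, 0.014 for Ccnb1 and 0.028 for Hbb-bs. By limma-voom they were -0.25 for Cd3e and 0.094 for Cd4. Among males alone they were -0.00287 for Cdc20, -0.089 for Mki67 and 0.018 for Hbb-bs. With 1 library left out the ranges were -0.039 to 0.069 for Ccnd3, -0.11 to 0.055 for Cdkn2c, -0.037 to 0.21 for Mcm2, -0.39 to 0.096 for Mcm5, -0.012 to 0.38 for Rrm2, -1.02 to 0.62 for Ccnb1, -0.076 to 0.84 for Bub1b, -0.18 to 0.70 for Cdc20, -0.70 to 0.30 for Plk1, -0.36 to 0.34 for Cenpe, -0.22 to 0.54 for Mki67 and -0.092 to 0.92 for Top2a. For markers they were -0.052 to 0.068 for Rgs5, -0.51 to 1.82 for Cd3e, -0.32 to 0.42 for Cd4, -0.36 to 0.13 for Hbb-bs and -0.43 to 0.032 for Hba-a1. Cenpf ranged from -1.80 to -1.48. The causes of these shifts were not tested. Low counts limit the mitotic genes: Ccnb1, Ccnb2 and Aurkb had as few as 2 reads in a library.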
